A study of Drosophila melanogaster with 12 samples.

Results

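The genes described here encode the vacuolar ATPase (V-ATPase) and the Rab GTPases of Drosophila melanogaster. Members were the protein-coding genes of the Ensembl BDGP6 annotation whose name begins with Vha followed by a digit or capital letter, or with Rab followed by a digit or X. This rule found 69 of 13968 protein-coding genes, 33 named Vha and 36 named Rab, and used no measured value. It also took in 3 genes that are not Rab GTPases but regulators of Rab3 (Rab3-GAP, Rab3GAP1 and Rab3-GEF), and it missed subunits that carry other names.

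RNA polymerase II (Pol II) was immunoprecipitated with the antibody 8WG16, which prefers the hypophosphorylated carboxy-terminal domain of the largest subunit, from Kc167 cells. Kc167 is a female embryonic line with hemocyte-like properties. Cells were mock transfected without RNA, transfected with 100 pmol of siRNA against AGO2 (siAGO2), or with 2 µg of long double-stranded RNA against LaminB (dsLaminB), and were collected after 3 days. Each treatment had 2 immunoprecipitated (IP) libraries, and each of these 6 libraries had its own peak list. The comparisons ask whether depletion of AGO2 or of LaminB changes where Pol II is found. Because the mock transfection held no RNA, and because an siRNA and a long dsRNA differ in kind, an effect of transfected RNA and an effect of depletion cannot be told apart. The labels do not say whether libraries of a treatment came from separate cultures, so p-values measure only the spread between these samples. With 2 libraries against 2, an exact permutation test cannot give a p below 0.333, and no difference in this text could pass a threshold.

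The V-ATPase is a rotary proton pump that acidifies endosomes, lysosomes and secretory vesicles. Its peripheral V1 part hydrolyses ATP and its membrane-embedded Vo part conducts protons. Flies hold several paralogues for most subunits, of which usually a single gene is used in most tissues and the others are largely testis-specific or otherwise restricted. Rab GTPases mark the membranes of the secretory and endocytic routes and recruit the motors, tethers and fusion factors that each transport step needs.

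A gene was counted as having a peak when a peak overlapped its annotated body. Where several did, the leading peak was the one with the largest −log10 q given by the authors' peak caller. Its place in the library's own list is given as a percentile, where 100 is the most significant peak and 0 the least. The lists held 5965 and 5601 peaks in mock, 4089 and 5381 with siAGO2, and 2531 and 4124 with dsLaminB (replicates 1 and 2, the order used throughout). Read depth is not given in them. A gene with no called peak may therefore still carry Pol II, and occupancy in fewer cells cannot be told apart from weaker occupancy in each cell. The −log10 q of the weakest peak was between 1.00 and 1.05 in every list. A percentile in a shorter list is not the same level as in a longer list, since a weak peak sits nearer to the bottom when the still weaker ones are not in the list.

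The cell type label was compared with its markers. Of 9 hemocyte genes, 7 had a peak in all 6 libraries (srp, Pxn, Hml, Col4a1, vkg, Pvr and ush), while NimC1 and He had none in any library. None of 3 midgut genes, 1 of 6 germline genes (vas), 1 of 3 muscle genes (Mef2) and 2 of 6 neuronal genes (elav and Syn) had a peak in all 6 libraries. The knockdown targets act as no check of depletion here, because RNA interference removes the RNA and not its gene. AGO2 had a peak in all 6 libraries and Lam, the LaminB gene, in all but dsLaminB replicate 1.

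Pol II peaks were more frequent on V-ATPase and Rab genes than on protein-coding genes at large in every library. In mock, 41 and 39 of 69 members had a peak (59.4% and 56.5%), against 48.6% and 45.9% of all protein-coding genes. The siAGO2 libraries had a peak on 32 and 37 members (46.4% and 53.6%), against 33.2% and 42.9%. The dsLaminB libraries had a peak on 21 and 34 members (30.4% and 49.3%), against 19.0% and 31.5%. The highest count came from mock replicate 1 and the lowest from dsLaminB replicate 1, the libraries with the longest and the shortest list.

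There were 20 members with a peak in all 6 libraries (29.0%), against 18.2% of all protein-coding genes, and 27 with a peak in none (39.1%), against 49.6%. The number with a peak in all libraries depended on dsLaminB replicate 1, without which it was 31. The share of all genes without that library was not computed. In both mock libraries together 39 members had a peak (56.5%), against 45.3%. The mean number of members with a peak was 40.0 ± 1.41 (SD, n = 2) in mock, 34.5 ± 3.54 in siAGO2 and 27.5 ± 9.19 in dsLaminB. The difference from mock was −5.5 with a pooled SD of 2.69 for siAGO2 and −12.5 with a pooled SD of 6.58 for dsLaminB (two-sided exact permutation p = 0.333 for each). Counts of both knockdowns lay below both mock counts. The siAGO2 difference was −3 without siAGO2 replicate 1, and the dsLaminB difference was −6 without dsLaminB replicate 1 and −19 without dsLaminB replicate 2.

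**Figure D1:**
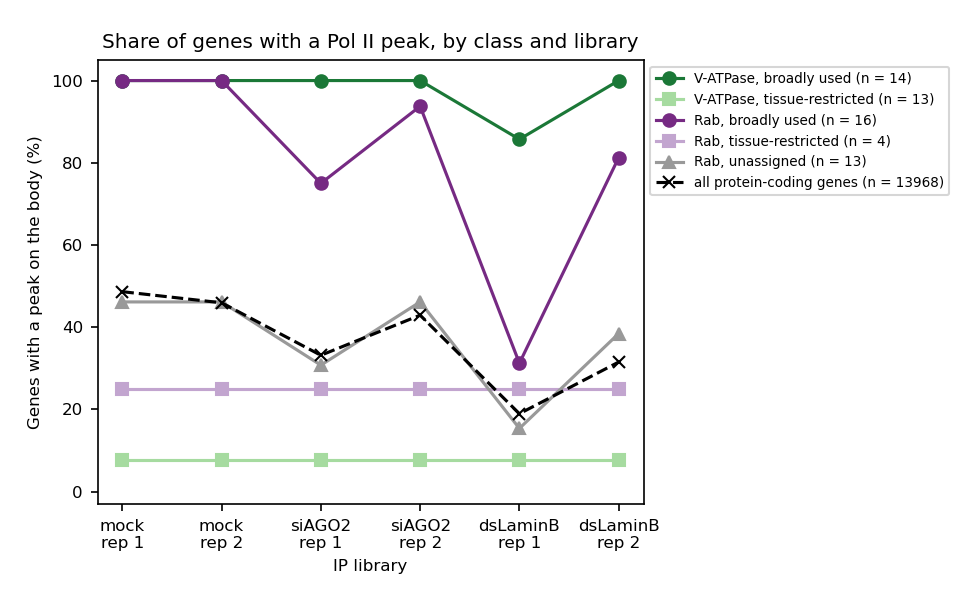
Percentage of genes with a Pol II peak on the body (vertical axis) in each of the 6 IP libraries (horizontal axis), for classes of members and, dashed, for all protein-coding genes. Each point is 1 library. The 14 broadly used V-ATPase genes stay at the top in 5 of 6 libraries and lose 2 genes in dsLaminB replicate 1, whereas broadly used Rab genes drop from 16 to 5 there, and tissue-restricted V-ATPase genes hold 1 of 13 in every library.

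Broad and restricted paralogues were separated by known use, from a list made with earlier results of these data known. All 14 broadly used V-ATPase genes had a peak in both mock libraries, and 12 of them in all 6. Of 13 tissue-restricted V-ATPase genes, 1 had a peak in both mock libraries and none in all 6, and of 6 Vha genes assigned to neither class 1 had a peak in both mock libraries. All 16 broadly used Rab genes had a peak in both mock libraries, though only 5 of them in all 6. Of the 4 Rab genes known mainly from neurons, Rab27 had a peak in all 6 libraries and Rab3, Rab26 and RabX4 in none. Restricted V-ATPase genes were also shorter, with a median body of 1371 bp against 2907 bp for the broadly used ones, and a shorter body leaves less room for a peak to overlap. A peak was then required within 500 bp of a transcription start site (TSS). This window does not grow with the length of the gene, but a gene with several annotated starts has several windows. It gave 14 of 14 broadly used and 2 of 13 restricted V-ATPase genes in both mock libraries.

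Among the V1 subunits, Vha68-2, which encodes the catalytic A subunit, stood near the top of the lists. Its leading peak was at percentile 91.1 and 90.4 in mock, 76.5 and 90.8 with siAGO2, and 79.6 and 90.1 with dsLaminB, with widths of 886 and 854 bp, 730 and 767 bp, and 380 and 443 bp. Only siAGO2 replicate 1 and dsLaminB replicate 1, the shorter list of each knockdown, placed it below percentile 90. Vha55 encodes the non-catalytic B subunit, and its peak stood at 68.4 and 54.7 in mock, 71.1 and 64.5 with siAGO2, and 44.2 and 54.2 with dsLaminB. The Vha55 peak was 1969 and 1924 bp wide in mock, 431 and 1796 bp with siAGO2, and 260 and 1371 bp with dsLaminB. The mock values were alike, and replicate 1 of each knockdown was far narrower than replicate 2. Except in replicate 1 of each knockdown, the Vha55 peak also covered the start of Snx3, so ranks and widths are of unlike stretches.

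Peripheral and central stalk subunits lay in the middle to upper part of the lists. Vha44 (subunit C, chr2R:16324813-16336637, minus strand) was at percentile 78.3 and 72.0 in mock, 42.9 and 65.3 with siAGO2, and 10.8 and 26.7 with dsLaminB, so that both knockdowns were below mock without overlap. Its peak stayed wide, at 1159 and 1107 bp in mock, 971 and 1050 bp with siAGO2, and 914 bp in dsLaminB replicate 2, and only dsLaminB replicate 1, with 413 bp, was far narrower. Vha36-1 (subunit D) was at 74.2 and 68.2 in mock, 72.1 and 81.7 with siAGO2, and 26.6 and 64.8 with dsLaminB. Vha13 (subunit G) was at 68.8 and 71.1 in mock, 72.3 and 86.8 with siAGO2, and 47.7 and 65.0 with dsLaminB. For Vha13, both siAGO2 values were above and both dsLaminB values below those of mock.

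Vha26, which encodes subunit E, was at percentile 53.0 and 58.1 in mock, 37.4 and 25.9 with siAGO2, and 41.7 in dsLaminB replicate 2. Vha14-1, which encodes subunit F, was at 51.0 and 52.9 in mock, 44.3 and 42.6 with siAGO2, and 32.8 in dsLaminB replicate 2. The widths were 1224 and 1328 bp in mock, 828 and 1089 bp with siAGO2 and 257 bp with dsLaminB for Vha26, and 1455 and 645 bp in mock, 257 and 517 bp with siAGO2 and 438 bp with dsLaminB for Vha14-1. These were the only broadly used V-ATPase genes that lacked a peak somewhere, in both cases in dsLaminB replicate 1, and they had the 2 lowest mean mock percentiles of that class. VhaSFD, which encodes subunit H, was at 81.9 and 82.6 in mock, 76.7 and 80.8 with siAGO2, and 27.3 and 73.2 with dsLaminB. Widths at VhaSFD were 461 bp in both mock libraries, 354 and 458 bp with siAGO2, and 249 and 287 bp with dsLaminB. Mock replicates of VhaSFD were nearly identical, and dsLaminB replicate 1 stood apart in rank.

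Vo subunits had peaks at similar places. Vha16-1 (the proteolipid c subunit of the proton-carrying ring) was at percentile 87.1 and 91.0 in mock, 84.7 and 85.8 with siAGO2, and 76.0 and 81.3 with dsLaminB, and its peak was 1720 and 1703 bp wide in mock. Vha100-2 (subunit a) was at 92.1 and 77.9 in mock, 83.3 and 95.6 with siAGO2, and 93.4 and 90.5 with dsLaminB. Vha100-2 was thus the broadly used V-ATPase gene that ranked highest in both dsLaminB libraries, at rank 168 of 2531 and 392 of 4124 peaks. Its peak measured 1641 and 1619 bp in mock, 1096 and 1247 bp with siAGO2, and 946 and 1151 bp with dsLaminB, narrower in both knockdowns without overlap. VhaPPA1-1 (subunit c″ of the ring) was at 59.6 and 63.5 in mock, 51.8 and 69.8 with siAGO2, and 22.5 and 60.6 with dsLaminB, and the groups overlapped.

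VhaAC39-1, encoding subunit d, was at percentile 71.4 and 67.3 in mock, 53.9 and 65.6 with siAGO2, and 16.3 and 49.3 with dsLaminB. VhaM9.7-b (subunit e) was at 83.6 and 79.7 in mock, 71.0 and 74.2 with siAGO2, and 38.8 and 70.9 with dsLaminB. Both genes were below mock in each knockdown without overlap. The peak of VhaAC39-1 measured 560 and 517 bp in mock, 327 and 474 bp with siAGO2, and 315 and 196 bp with dsLaminB. That of VhaM9.7-b measured 1249 and 1304 bp in mock, 1099 and 1206 bp with siAGO2, and 825 and 1126 bp with dsLaminB, and changed little outside dsLaminB replicate 1. VhaAC45, an accessory subunit, was at 73.8 and 61.4 in mock, 58.0 and 68.0 with siAGO2, and 19.2 and 44.2 with dsLaminB, where only dsLaminB lay apart from mock. Its peak measured 1163 and 1149 bp in mock, 823 and 1108 bp with siAGO2, and 156 and 901 bp with dsLaminB.

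The tissue-restricted paralogues showed few peaks. Vha100-1, a neuronal a subunit, had a peak of 713 and 801 bp in mock at percentile 52.6 and 43.6, of 641 and 853 bp in siAGO2 at 47.3 and 41.1, and of 557 bp in dsLaminB replicate 2 at 13.3. This peak covered the start of Vha100-1 and also that of dgt6 in all 5 libraries, so it cannot be assigned to either gene alone. Vha100-3 had a single peak, of 723 bp at rank 2442 of 2531 peaks in dsLaminB replicate 1, and none in the other 5 libraries. The remaining 11 restricted V-ATPase genes, among them Vha68-3, Vha36-3, Vha16-2 and Vha100-4, had no peak on the body in any library. Of these, Vha16-5 had a peak within 500 bp of its TSS in 3 libraries, both mock and siAGO2 replicate 2.

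Tandem arrangements put a broad and a restricted paralogue next to each other on the same strand. Vha68-2 (chr2L:12974322-12978607) and Vha68-3 (chr2L:12978786-12981293), both on the plus strand, are 178 bp apart, Vha100-2 and Vha100-4 are 517 bp apart on the minus strand of 3R, and VhaPPA1-1 and VhaPPA1-2 are 2052 bp apart on the minus strand of 3R. In all 3 arrangements the broadly used gene had a peak in all 6 libraries and its neighbour in 0 of 6. The core promoters of the Vha100 pair are shown because both hold the letters TCAGT (or ACTGA, the other strand), part of the initiator consensus of fly promoters, at the canonical start. The leading peak of Vha100-2 lay elsewhere, 1377 to 1966 bp upstream of this start, over the gene's other start and that of Vti1b, so that the canonical start was under the leading peak in 0 of 6 libraries. It was under another, lower-ranked peak in 5 of 6, whereas no peak lay on the start of Vha100-4. Each line runs from 200 bases before the canonical TSS to 20 bases from it on, on the minus strand of dm6, with matches to TCAGT on either strand in capitals, at chr3R:18396909-18397128 for Vha100-2 and chr3R:18389786-18390005 for Vha100-4.
Vha100-2: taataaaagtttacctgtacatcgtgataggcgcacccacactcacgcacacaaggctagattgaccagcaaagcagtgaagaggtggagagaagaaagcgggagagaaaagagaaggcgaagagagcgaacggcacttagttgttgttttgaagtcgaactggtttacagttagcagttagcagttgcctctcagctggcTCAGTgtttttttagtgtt
Vha100-4: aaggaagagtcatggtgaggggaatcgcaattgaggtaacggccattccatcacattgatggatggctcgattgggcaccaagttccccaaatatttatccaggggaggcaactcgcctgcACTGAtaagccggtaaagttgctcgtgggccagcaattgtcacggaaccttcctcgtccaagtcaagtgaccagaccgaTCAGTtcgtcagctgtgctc
The first letter of the match near the start was base 2 of the transcript in Vha100-2 and base 1 in Vha100-4, and Vha100-4 held another match 79 bases before its TSS. TCAGT was present in 51.8% of 13967 protein-coding promoters of 300 bases (250 before and 50 from the TSS on), in 4 of 14 broadly used and 7 of 13 restricted V-ATPase promoters, among them those of Vha100-4 and Vha68-3, which had no peak.

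Rab genes of the early secretory route had peaks in nearly every library. Rab6, which acts at the Golgi, was at percentile 81.1 and 71.4 in mock, 68.7 and 71.2 with siAGO2, and 51.7 and 55.6 with dsLaminB. Rab2, which acts between the endoplasmic reticulum and the Golgi and later on lysosome-directed carriers, was at 76.4 and 68.8 in mock, 57.5 and 65.8 with siAGO2, and 0.751 and 32.5 with dsLaminB. Rab1, needed for transport from the endoplasmic reticulum to the Golgi, was at 51.3 and 47.1 in mock, 54.6 and 60.0 with siAGO2 and 58.7 in dsLaminB replicate 2, with no peak in dsLaminB replicate 1. Rab2 thus came to the bottom of the dsLaminB replicate 1 list, whereas Rab1, where it had a peak, was higher in the knockdown lists than in mock. The Rab1 peak also covered the starts of AP-2sigma and Idi in both mock libraries and siAGO2 replicate 2. In the other libraries with a peak it did not, so these ranks are of unlike stretches.

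Rab11, Rab4, Rab8 and Rab10 serve recycling and exocytosis. Rab11, of the recycling endosome, was at percentile 75.9 and 61.3 in mock, 53.3 and 70.8 with siAGO2 and 55.3 in dsLaminB replicate 2. Rab4, of the fast recycling route, had narrow peaks of 255 and 219 bp in mock that did not cover its TSS, and a peak in only 1 library of each knockdown. Rab8 and Rab10, which direct vesicles to the plasma membrane, were at 43.5 and 33.1 and at 25.3 and 12.2 in mock. All 4 lacked a peak in dsLaminB replicate 1, and Rab4 and Rab10 also in siAGO2 replicate 1.

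Endosomal Rab genes ranged from the top to the bottom of the lists. Rab5, the Rab of early endosomes, was at percentile 57.6 and 63.3 in mock, 35.8 and 49.7 with siAGO2 and 23.9 in dsLaminB replicate 2, with a peak of 1136 to 1263 bp that also covered the start of Axud1. Rab7 (chr3R:23993008-23995452, plus strand), which brings late endosomes to the lysosome, was weak in every list, at 22.5 and 17.6 in mock and 0.538 and 7.17 in siAGO2, and had no peak in dsLaminB. Rab9 (chr2L:19432574-19435841, plus strand), which in mammals returns cargo from late endosomes to the Golgi, was at 87.0 and 88.9 in mock, 74.4 and 76.8 with siAGO2, and 56.5 and 67.1 with dsLaminB. Rab9 was the highest of the broadly used Rab genes in mock and lower in both knockdowns without overlap.

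Rab21 and Rab35 completed the 5 broadly used Rab genes with a peak in all 6 libraries, a number that was 11 without dsLaminB replicate 1. Rab21, of early endosomes, had the lowest mean mock percentile of the 20 members with a peak in all 6 libraries, at 44.5 and 48.8 in mock, 26.6 and 43.8 with siAGO2, and 1.54 and 31.2 with dsLaminB. Rab35, which acts in endocytic recycling, was at 62.3 and 64.2 in mock, 57.5 and 56.2 with siAGO2, and 12.6 and 49.7 with dsLaminB. The leading peak covered the TSS of Rab35 only in the mock libraries, where it was 682 and 480 bp wide, and was 207 to 334 bp wide elsewhere. Of the genes without a peak in dsLaminB replicate 1, Rab14, which acts on endosomes and phagosomes, was at 49.1 and 47.1 in mock, 21.9 and 48.4 with siAGO2 and 19.6 in dsLaminB replicate 2. Rab40 was at 69.2 and 67.4 in mock, 55.8 and 66.8 with siAGO2 and 67.3 in dsLaminB replicate 2, and so was as high there as in mock. Within 500 bp of a TSS, Rab40 had a peak in all 6 libraries. The number of broadly used Rab genes with a peak in all libraries was then 6.

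Outside the broad class, Rab32 ranked above every other member in mock. Rab32 (lightoid, chr2R:9177864-9186342, minus strand) serves lysosome-related organelles such as the pigment granules of the eye, and was at percentile 96.5 and 94.7 in mock, 94.9 and 94.0 with siAGO2, and 85.1 and 90.3 with dsLaminB, with peaks of only 318 to 452 bp. Rab23, known from planar cell polarity, was at 61.5 and 67.2 in mock, 33.2 and 48.8 with siAGO2, and 30.8 and 37.0 with dsLaminB. Both had a peak in all 6 libraries, and Rab32 stayed above percentile 85 in all of them.

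Rab27, which in mammals controls regulated secretion and in flies is known mainly from neurons, was at percentile 57.3 and 62.2 in mock, 33.7 and 67.8 with siAGO2, and 33.3 and 31.6 with dsLaminB. Its peak was 2829 and 7601 bp wide in mock, 569 and 7389 bp with siAGO2, and 176 and 649 bp with dsLaminB, a range over libraries wider than that of any other member. The peak also covered the starts of mei-38 and rush in both mock libraries, so Pol II there cannot be assigned to Rab27 alone.

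RabX6, Rab30, RabX1 and Rab19 had a peak in both mock libraries at percentiles between 25.0 and 59.5. Rab9D, Rab9Db, Rab9E, Rab9Fa, Rab9Fb, RabX2 and RabX5 had no peak in any library. The authors removed reads of low mapping quality, so a gene with a near-identical copy could lose its reads, and the similarity of the Rab9 copies was not measured. Of the Vha genes in neither class, Vha68-1 had 1 peak on its body, in mock replicate 1, which also covered the start of mTor. Vha100-5, Vha16-4, VhaAC45RP and VhaM9.7-a had none on the body. Within 500 bp of the TSS, Vha68-1 had a peak in 4 libraries (both mock and both siAGO2) and VhaM9.7-a in 2 (both mock). Among the regulators, Rab3-GAP had 1 peak at rank 5593 of 5965 in mock replicate 1.

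**Figure D2:**
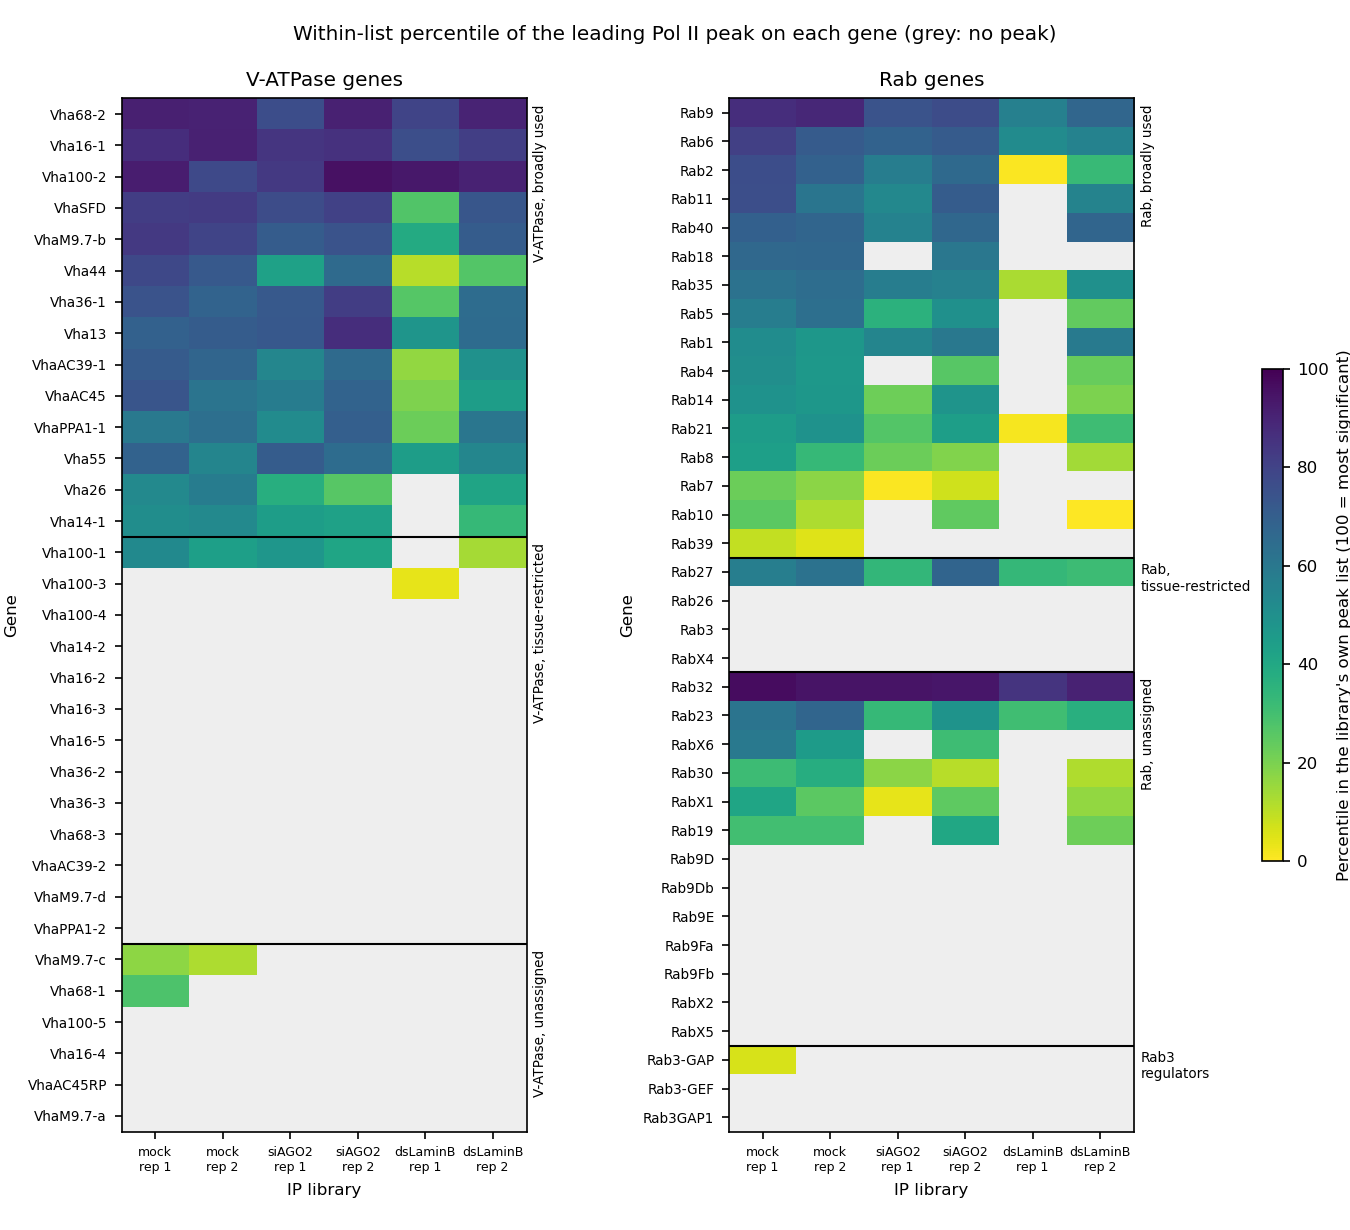
Within-list percentile of the leading peak (colour, 100 for the most significant peak of a list) for each member (rows, grouped by class) in each IP library (columns), with grey for no called peak. Most grey cells of broadly used genes belong to dsLaminB replicate 1, where 2 V-ATPase and 11 Rab genes lack a peak, while 11 of 13 tissue-restricted V-ATPase genes are grey throughout.

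Most of the peaks lay on the members' own starts. Of the 39 members with a peak in both mock libraries, 35 had a TSS of their own under the leading peak in both (89.7%), against 84.9% of all genes with such peaks. The exceptions were Rab4, Rab39, Rab19 and VhaM9.7-c. The leading peak covered a TSS of another gene in both mock libraries in 23 of 39 members (59.0%), against 47.6%. Such shared peaks included those of Vha100-2 with Vti1b, Vha44 with Hmgs, VhaM9.7-b with COX8, Rab18 with RpL35, Rab8 with Usp32 and Rab2 with Mob4. A shared peak gives no value for either gene alone.

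Promoters were searched for short motifs on both strands, in the 300-base windows described above, at the canonical start only. For some members, among them Vha44, Rab32 and Rab14, the leading peak in mock lay over another start of the gene. The motif counts are thus of canonical promoters, which are not always those under the peak. The letters TATCGATA, the DNA replication-related element bound by DREF at many broadly active fly promoters, were in 12 of 69 member promoters (17.4%), against 8.94% of all 13967 promoters. They were in 6 of 16 broadly used Rab promoters (Rab6, Rab2, Rab8, Rab7, Rab40 and Rab35), in 2 of 14 broadly used V-ATPase promoters (VhaSFD and Vha55), in 0 of 13 restricted V-ATPase promoters and in 1 of 4 neuronal Rab promoters (Rab27). All 12 members with TATCGATA had a peak in both mock libraries, whereas 27 of 57 without it did (47.4%). Over all genes, 77.0% of those with TATCGATA and 42.1% of those without had a peak in both mock libraries. A match is a description of the letters and was not tested as a binding site. The promoters of a V1 subunit, a late endosomal Rab, the gene with 2 matches and the neuronal Rab with a peak are shown because they hold this element and differ widely in rank. They run from 200 bases before the canonical TSS to 20 bases from it on, with TATCGATA in capitals, at chr2L:16727807-16728026 (VhaSFD, minus strand), chr3R:23992808-23993027 (Rab7, plus strand), chrX:20159853-20160072 (Rab35, minus strand) and chrX:1476955-1477174 (Rab27, minus strand) of dm6.
VhaSFD: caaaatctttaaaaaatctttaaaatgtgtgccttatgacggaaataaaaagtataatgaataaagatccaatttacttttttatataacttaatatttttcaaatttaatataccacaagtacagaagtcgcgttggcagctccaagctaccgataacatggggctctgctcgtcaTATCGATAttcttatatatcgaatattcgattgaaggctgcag
Rab7: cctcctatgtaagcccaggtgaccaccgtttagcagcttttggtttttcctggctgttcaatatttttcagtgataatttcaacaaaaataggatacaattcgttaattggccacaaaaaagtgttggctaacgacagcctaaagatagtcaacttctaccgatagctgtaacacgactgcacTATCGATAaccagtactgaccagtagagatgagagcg
Rab35: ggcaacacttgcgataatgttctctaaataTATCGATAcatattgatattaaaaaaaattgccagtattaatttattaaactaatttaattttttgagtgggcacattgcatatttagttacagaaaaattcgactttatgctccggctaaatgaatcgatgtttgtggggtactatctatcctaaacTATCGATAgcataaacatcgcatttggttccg
Rab27: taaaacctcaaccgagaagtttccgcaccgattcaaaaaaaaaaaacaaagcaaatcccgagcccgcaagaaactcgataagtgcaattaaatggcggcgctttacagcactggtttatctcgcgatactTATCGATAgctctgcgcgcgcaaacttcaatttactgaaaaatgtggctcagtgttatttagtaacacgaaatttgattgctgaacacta
The canonical start was under the leading peak in 6 libraries for VhaSFD, 1 for Rab7, 2 for Rab35 and 5 for Rab27, and in the other libraries with a peak the leading peak lay at most 102 bp from it. The element began 23 bases before the TSS in VhaSFD, 17 in Rab7, 170 and 12 in Rab35, and 70 in Rab27. Genes with the element differed in rank, with VhaSFD above percentile 80 in both mock libraries and Rab7 below 25. CACGTG, the core of the E-box that MITF-family factors bind at lysosomal genes in mammals, was in 4.25% of all promoters, in 0 of 14 broadly used V-ATPase promoters, and in the promoters of VhaM9.7-d and VhaAC45RP, neither of which had a peak. TATAAA was in 45.3% of all promoters, in 5 of 14 broadly used and in 8 of 13 restricted V-ATPase promoters.

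After AGO2 knockdown 2 of the 39 members with a peak in both mock libraries had none in either siAGO2 library (5.13%), against 7.34% of all such genes. They were VhaM9.7-c, a paralogue of the small e subunit, and Rab39 (chrX:7734923-7736756, plus strand), which acts at lysosomes. VhaM9.7-c had been at percentile 16.9 and 12.2 in mock, with 30.2% and 32.0% of its body under peaks, and Rab39 at 9.21 and 4.82, with 12.7% and 12.8% of its body under peaks. Their −log10 q in mock was 4.93 and 3.50 for VhaM9.7-c and 3.33 and 2.29 for Rab39, in the lower part of both mock lists. No member was gained (0 of 28, against 0.0565%). Without siAGO2 replicate 2 the number lost was 7, and without mock replicate 2 it was 4. Leaving out a library loosens the rule, so these numbers could only stay or rise. The shares of all genes without these libraries were not computed.

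After LaminB knockdown 5 of 39 members had lost their peak in both libraries (12.8%), against 30.8% of all genes. They were VhaM9.7-c and Rab39 again, Rab7, Rab18 and RabX6. The comparisons with mock share the mock libraries, so the recurrence of VhaM9.7-c and Rab39 is not independent. Rab18 (chrX:5670827-5671812, minus strand), which acts on lipid droplets and the endoplasmic reticulum, had been well above the bottom of the lists, at percentile 66.2 and 66.5 in mock and 60.3 in siAGO2 replicate 2, with 27.2%, 23.6% and 24.7% of its body under a peak that also covered the start of RpL35, and no peak in siAGO2 replicate 1. RabX6 (chr3L:690517-691951, plus strand) was at 59.5 and 44.9 in mock and 31.1 in siAGO2 replicate 2, again with no peak on its body in siAGO2 replicate 1. With an overlap of at least 100 bp RabX6 left the lost members because mock replicate 1 no longer counted. Its peak there covered only 4.74% of the body. No part of its body was under a peak in either dsLaminB library. With a window of 500 bp around its TSS RabX6 was not lost. It then had a peak in 5 libraries, dsLaminB replicate 2 and siAGO2 replicate 1 among them. Rab7 alone had a peak in both siAGO2 libraries and in neither dsLaminB library (1.45% of members, against 3.85%), and no member showed the opposite (0 of 69, against 0.0358%). No member was gained in dsLaminB (0 of 28, against 0.0565%). Without dsLaminB replicate 2 the number lost was 19 and 1 member was gained, and without mock replicate 2 the number lost was 7. Here too the numbers could only stay or rise, and the shares of all genes were not computed.

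Changes in rank were followed for the 20 members with a peak in all 6 libraries. The median change in within-list percentile was −6.33 in siAGO2 and −26.4 in dsLaminB, against −4.80 and −16.8 for the 2544 genes with a peak in all 6 libraries. These values can include an effect of list length. With the same number of peaks taken from each library, 2531, the members' medians were 0.415 and −3.72. These medians cover only the 14 members still called in all 6 lists. Vha44, Rab2, Rab23, Vha55, Rab27 and Rab21 dropped out, so list length and the change of members cannot be told apart. The siAGO2 median was −2.25 without siAGO2 replicate 1 and −9.69 without siAGO2 replicate 2, and the dsLaminB median was −15.5 without dsLaminB replicate 1. The largest positive differences of siAGO2 from mock were those of Vha13 (9.62, pooled SD 7.35), Vha55 (6.23, pooled SD 7.63) and Vha36-1 (5.67, pooled SD 5.68), of which only Vha13 had groups that did not overlap (exact permutation p = 0.333). The largest negative differences were those of Rab23 (−23.4, pooled SD 8.33), Vha44 (−21.1, pooled SD 11.6) and Rab9 (−12.4, pooled SD 1.52), each with p = 0.333 in the exact test and without overlap. In dsLaminB only Vha100-2 had a higher mean percentile than in mock (6.98, pooled SD 7.23), with overlapping groups, and the next values were those of Vha68-2 (−5.94, pooled SD 5.24) and Rab32 (−7.93, pooled SD 2.78). Vha44 (−56.4, pooled SD 8.59), Rab2 (−56.0, pooled SD 16.3) and VhaAC39-1 (−36.6, pooled SD 16.6) had the largest negative differences, all without overlap (exact permutation p = 0.333 for each). Single libraries moved several of these values by more than 1.5 times. In siAGO2, Vha44 was at −9.87 without siAGO2 replicate 1 and −32.3 without siAGO2 replicate 2, and Rab23 at −15.6 without siAGO2 replicate 1. Vha13 was at 16.9 and 2.36, and Vha36-1 at 10.5 and 0.87, without siAGO2 replicates 1 and 2, and Vha36-1 at 8.71 and 2.64 without mock replicates 1 and 2. Vha55 was at 2.93 and 9.53 without siAGO2 replicates 1 and 2, and at 13.1 without mock replicate 1. In dsLaminB, Vha100-2 was at 14.1 without mock replicate 1, Vha68-2 at −0.715 and −11.2 without dsLaminB replicates 1 and 2, and VhaAC39-1 at −20.1 without dsLaminB replicate 1. Without mock replicate 2 the direction turned for Vha55 in siAGO2 (−0.644) and for Vha100-2 in dsLaminB (−0.111), and in lists of equal length Vha68-2 was higher in dsLaminB (2.77).

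A relative percentile that list length does not move was added after the data had been seen. It ranks each gene in each library only among the 2544 genes with a peak in all 6 libraries. In siAGO2, 5 of 20 members were lower in both libraries than in both mock libraries (25.0%, against 20.0% of all 2544 genes), namely Rab9, Vha44, VhaM9.7-b, Rab23 and VhaAC39-1. Higher in both were 3 of 20 (15.0%, against 19.2%), namely Vha13, Vha36-1 and VhaPPA1-1. These shares are near the background. The leading peaks of Vha13, Vha36-1 and VhaPPA1-1 were also narrower in both siAGO2 libraries, as were those of 14 of the 20 members (70.0%, against 51.7%). Whether width moved the rank was not tested. The relative percentile of Vha13 was 28.5 ± 6.09 (SD, n = 2) in mock and 61.2 ± 13.1 in siAGO2, and that of Rab9 was 70.9 ± 4.45 and 51.3 ± 6.03 (exact permutation p = 0.333 for each).

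In dsLaminB, 8 of 20 members were lower in both libraries (40.0%, against 25.3%). They were VhaSFD, Rab9, Rab2, Rab32, VhaAC45, Vha44, VhaM9.7-b and VhaAC39-1. Vha44 was at 40.0 ± 7.48 (SD, n = 2) in mock and 6.84 ± 3.03 in dsLaminB, and Rab2 at 34.3 ± 8.56 and 4.09 ± 4.98 (exact permutation p = 0.333 for each). Higher in both were 4 of 20 (20.0%, against 25.3%), namely Vha68-2, Vha55, Vha100-2 and Vha13. Ranked by fold enrichment in place of −log10 q, these numbers were 5 lower and 2 higher. The shares of all genes under that ranking were not computed. The Vha44 peak also covered the start of Hmgs in all 6 libraries. In both mock libraries the Vha13 peak also covered the start of Nup58, and the Vha55 peak that of Snx3. These values thus do not belong to the V-ATPase genes alone.

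**Figure D3:**
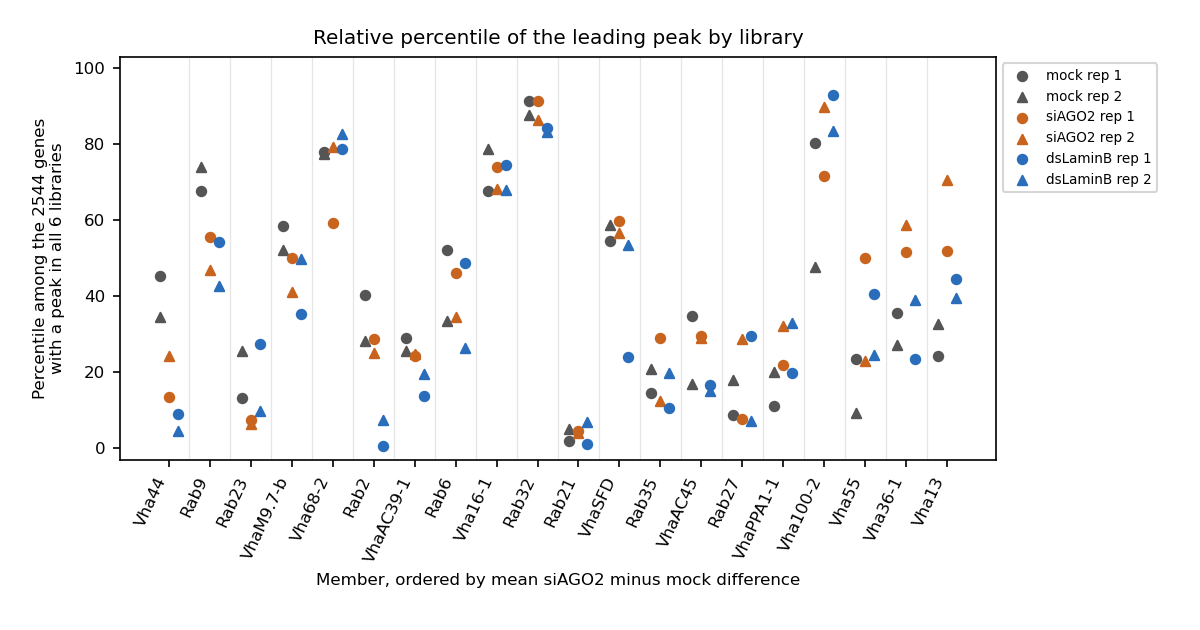
Relative percentile of the leading peak (vertical axis, among the 2544 genes with a peak in all 6 libraries) for the 20 members with a peak in all libraries (horizontal axis, ordered by the mean siAGO2 minus mock difference). Each symbol is 1 library, with circles for replicate 1 and triangles for replicate 2. Vha44 and Rab9 lie lower and Vha13 higher in both knockdowns than in both mock libraries.

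The leading peaks of the members were wide in mock and narrower after knockdown. Over the members with a peak, the mock libraries had medians of 886 and 859 bp (713 and 638 bp for all protein-coding genes with a peak). Medians were 521 and 767 bp (430 and 609 bp) for siAGO2, and 305 and 440.5 bp (317 and 398.5 bp) for dsLaminB. Of the 20 members with a peak in all libraries, 14 were narrower in both siAGO2 than in both mock libraries (70.0%, against 51.7%), and 20 in both dsLaminB libraries (100%, against 91.2%). The median change in width was −164 bp in siAGO2 and −492 bp in dsLaminB, against −134.5 and −308 bp for all 2544 genes. The siAGO2 value was −67.5 bp without siAGO2 replicate 1 and −307 bp without siAGO2 replicate 2. Without dsLaminB replicate 1 the dsLaminB value was −302 bp, but over the 31 members with a peak in the other libraries. Narrowing was thus near universal in dsLaminB, where peaks of all genes are narrow, and the width of a called peak depends on the depth and enrichment of its library.

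**Figure D4:**
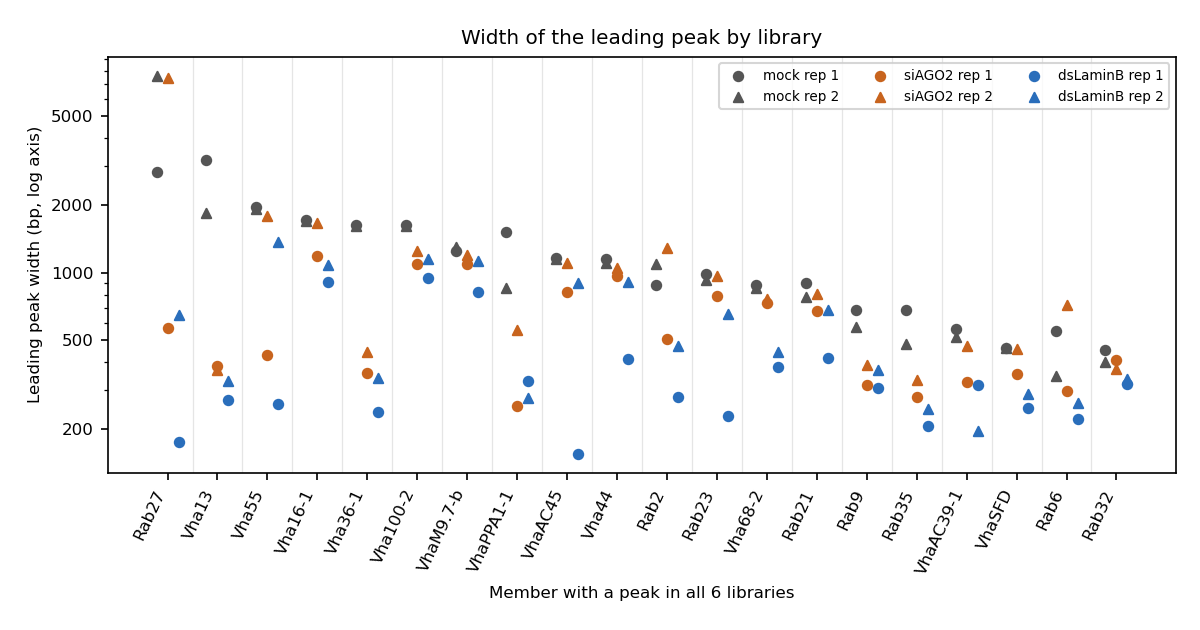
Width of the leading peak in bp (vertical axis, logarithmic) for the 20 members with a peak in all 6 libraries (horizontal axis, ordered by mean mock width), with 1 symbol per library. All 20 members lie lower in both dsLaminB libraries than in both mock libraries, and at Rab27 the widths span 176 to 7601 bp.

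A few V-ATPase genes narrowed far more than the median. Vha13 (chr3R:19643018-19644386, minus strand), a gene of 1369 bp, had a peak of 3196 and 1859 bp in mock, 382 and 367 bp with siAGO2, and 270 and 330 bp with dsLaminB. In mock the peak extended over the start of Nup58 and, in replicate 1, of subdued, while in the other 4 libraries it covered only the start of Vha13. The share of the Vha13 body under peaks was 100% and 60.8% in mock, 19.8% and 18.7% with siAGO2, and 18.0% in both dsLaminB libraries (exact permutation p = 0.333 for each knockdown).

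Vha36-1 (chr2R:15541435-15542498, plus strand), a gene of 1064 bp, had its whole body under a peak of 1643 and 1627 bp in mock that also covered the starts of CG8187 and eIF2Bgamma. The peak was 356 and 445 bp wide in siAGO2 and 240 and 340 bp in dsLaminB, and 23.3% and 30.5%, and 19.3% and 22.0%, of the body remained covered. The start of CG8187 was still under it in both siAGO2 libraries and dsLaminB replicate 2, so the peak cannot be assigned to Vha36-1 alone. VhaPPA1-1 went from 1529 and 859 bp in mock to 255 and 558 bp with siAGO2 and 329 and 277 bp with dsLaminB. In these 3 genes all 4 knockdown peaks were narrower than both mock peaks. Vha13 and Vha36-1 narrowed in both siAGO2 libraries while their mean within-list percentile was higher than in mock. Their mock percentiles belong to wider peaks that also covered starts of other genes, so mock and siAGO2 ranks are of unlike stretches. Whether width moved the rank was not tested.

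In all, 14 of the 20 members were narrower in all 4 knockdown libraries than in both mock libraries. Of all 2544 genes, 51.7% were narrower in both siAGO2 and 91.2% in both dsLaminB libraries. The share narrower in all 4 was not computed, so the count is not read as a trait of the members. The size of the change differed between libraries. Vha55 (1969 and 1924 bp in mock) and Rab1 (2103 and 2040 bp in mock) kept peaks of 1796 and 1911 bp in siAGO2 replicate 2, against 431 and 460 bp in siAGO2 replicate 1, the library with the shorter list. In mock and siAGO2 replicate 2 the Vha55 peak also covered the start of Snx3, and the Rab1 peak those of AP-2sigma and Idi. In siAGO2 replicate 1 neither peak covered another start, so these widths do not belong to Vha55 and Rab1 alone. Vha68-2 narrowed little in siAGO2, to 730 and 767 bp. Vha16-1 was 1720 and 1703 bp wide in mock, 1192 and 1664 bp with siAGO2, and 912 and 1090 bp with dsLaminB, which is lower throughout but with a wide spread in siAGO2. The part of depth and enrichment in these widths was not tested.

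**Figure D5:**
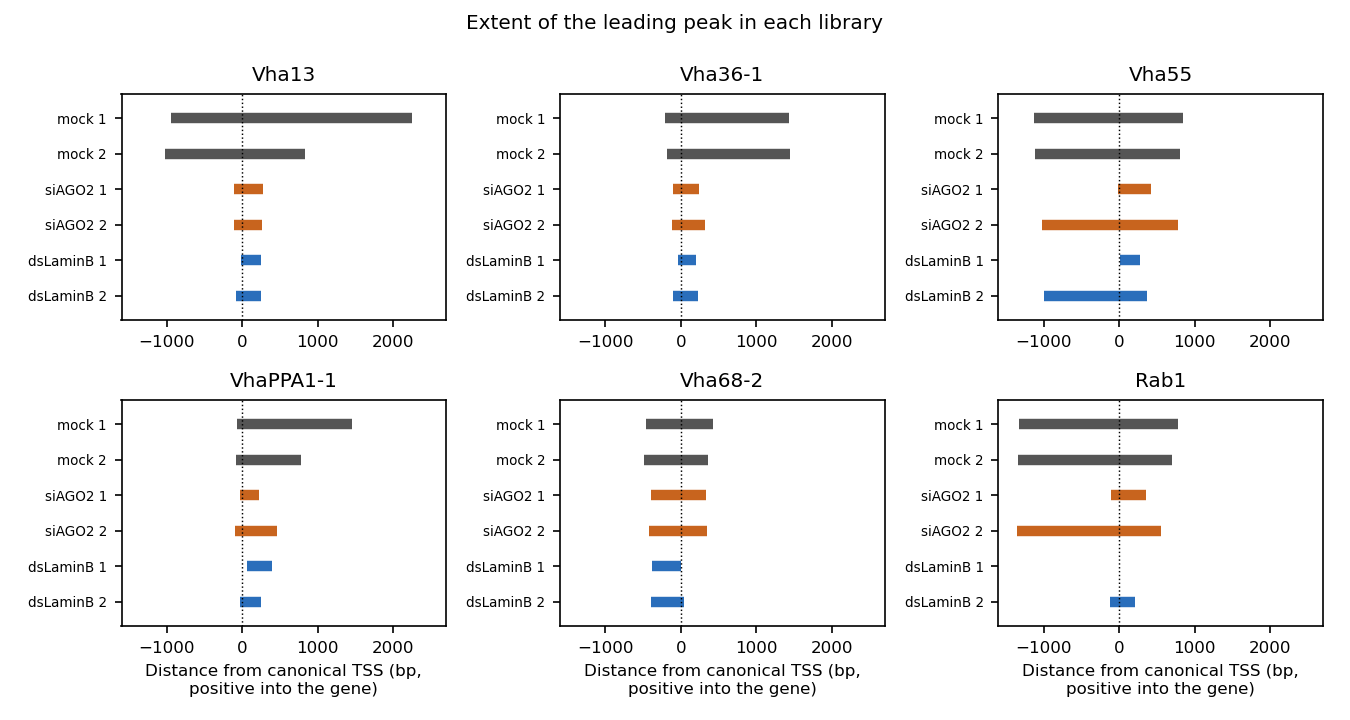
Extent of the leading peak (bars) around the canonical TSS (dotted line) of 6 members, in bp from the TSS with positive values into the gene, with 1 row for each IP library. At Vha13 and Vha36-1 all 4 knockdown peaks shrink to the start of the gene, at Vha55 and Rab1 siAGO2 replicate 2 keeps a mock-like extent, and Rab1 has no peak in dsLaminB replicate 1.

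Partner genes outside the naming rule were counted in the same way. Of 8 V-ATPase assembly and lysosomal genes, 4 had a peak in all 6 libraries (Rbcn-3A, Lamp1, spin and cathD) and 2 in none (Mitf and Trpml). Of 8 genes of the Rab cycle, 1 had a peak in all libraries (Rabex-5, an exchange factor of Rab5) and 2 in none (Rep and Ccz1). Of 14 tethers and effectors, 3 had a peak in all libraries (Vps29, nuf and Rip11) and 1 in none (Vps11). A peak in both mock libraries was found on 6 of the lysosomal genes, 5 of the Rab cycle genes and 11 of the tethers and effectors. Of the 30 partners together, 26.7% had a peak in all 6 libraries, against 18.2% of all protein-coding genes. A peak in none was seen for 16.7%, against 49.6%, and in both mock libraries for 73.3%, against 45.3%. In siAGO2 only Sbf among these had lost its peak in both libraries. In dsLaminB, Rbcn-3B, Rich and 5 of the tethers (car, dor, Vps16A, Vps8 and Vps33B) had. These are 7 of the 22 partners found in mock (31.8%), against 30.8% of all genes, and the share lost in siAGO2 was 4.5%, against 7.34%. None of the partner genes was gained in either knockdown. Vps33B, of a late endosomal tethering complex, had stood at percentile 92.1 and 82.9 in mock and 88.3 and 97.3 in siAGO2, and Vps8, of the early endosomal CORVET tether, at 78.4 and 78.5 in mock and 76.6 and 77.9 in siAGO2. Both were well above the bottom of the list in 4 libraries and had no peak on the body in either dsLaminB library. Whether these peaks covered the start of another gene, or lay just off the body in dsLaminB, was not examined.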

How the data were processed

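Pol II ChIP-seq was made from Kc167 cells in 3 groups of 2 IP libraries, each with an input library that gave no table here. According to the submitters' processing notes, reads were trimmed with cutadapt 1.10, aligned to dm6 with Bowtie2 and marked for duplicates with Picard 2.11.0, and peaks were called by the authors with MACS2 2.1.1.20160309 for each IP library against its input, in broad mode. The deposited columns are a display score, a fold enrichment (ratio over the local background), −log10 p and −log10 q, and were used as deposited. Because peaks were called per library, replicates are compared by presence, rank and width, which move with depth and enrichment, and read depth is unknown from these files.

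Peaks were assigned to the 69 member genes of Ensembl release 115 (BDGP6.54, the assembly of dm6) by an overlap of at least 1 bp, with the leading peak chosen by −log10 q. Promoter sequences were read from the RefSeq genome of the same assembly. The members, gene lists and tests were chosen with earlier results of these data known. Values in every library were given, by rule, for the broadly used V-ATPase genes, restricted members with a peak, members lost or gained in a knockdown, the 3 members with the highest and the 3 with the lowest mean mock percentile among those with a peak in all libraries, and the 3 largest rises and falls in mean percentile per knockdown. Other members were named after their values were seen. Differences from mock were tested by two-sided exact permutation of 2 against 2 libraries. Replicate numbers were not used as pairs in this test, and the labels do not say whether they mark pairs. Correlations of replicate deviations between groups ranged from −0.071 to 0.206. They cannot settle this, because a correlation leaves out a shift shared by all genes of a library. Alternatives were a stricter −log10 q of 5, lists of equal length, a TSS window, a 100 bp overlap, joining peaks within 1000 bp, ranking by fold enrichment, the replicate block and leaving out each library. The computation was tested on simulated peak lists. Python 3.11.15, numpy 2.4.6, pandas 2.3.3 and matplotlib 3.10.9 were used.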

Additional observations from a re-analysis of the deposited data

How the results depend on the processing

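At −log10 q of at least 5, 9 members had a peak in all 6 libraries, with 6 broadly used V-ATPase and 2 broadly used Rab genes among them, 4 members were lost in siAGO2 and 14 in dsLaminB. The lost members at that setting shared 0 of 2 with those of all peaks in siAGO2 and 2 of 5 in dsLaminB. In lists of equal length 3 broadly used Rab genes had a peak in all libraries, 39 members had a peak in none, 1 member (Rab1) was gained in siAGO2, and 2 were lost in siAGO2 (Rab5 and Rab23, sharing 0 with the 2 reported) and 2 in dsLaminB (Rab5 and Rab18, sharing 1 of 5), and the median percentile difference was 0.415 in siAGO2, which turned its direction, and −3.72 in dsLaminB. These median differences cover only the 14 members then called in all lists. Vha68-2 in dsLaminB turned to 2.77 in the lists of equal length. Without mock replicate 2, Vha55 in siAGO2 turned to −0.644 (13.1 without mock replicate 1) and Vha100-2 in dsLaminB to −0.111. Ranked by fold enrichment, 5 members were lower and 2 higher in dsLaminB. The counts under these settings were made for the members only. Shares of all genes were not computed, so whether the members differ from other genes there is not known. The causes were not tested.

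Leaving out each library in turn gave 20 to 31 members with a peak in all libraries, 27 to 29 with none, 12 to 14 broadly used V-ATPase, 0 to 1 restricted V-ATPase and 5 to 11 broadly used Rab genes in all libraries. It gave 2 to 7 members lost in siAGO2, 5 to 19 lost and 0 to 1 gained in dsLaminB. With a library left out fewer libraries must meet the rule, so all these counts could only stay or rise. They were made for the members only. The mean difference in members with a peak ranged from −8 to −3 in siAGO2 and −19 to −6 in dsLaminB. The median percentile difference ranged from −9.69 to −2.25 and −36.4 to −15.5, and the median width difference from −307 to −67.5 bp and −697.5 to −302 bp. The values −15.5 and −302 bp, without dsLaminB replicate 1, cover 31 members and not 20. The replicate block, a mean of the differences within replicate numbers, gave −5.5 and −12.5 members (exact sign-flip p = 0.5 for each, the smallest that 2 pairs allow). These equal the unblocked differences by construction, so the block is no check of them. Of the summary values under an alternative, 144 were classed as unchanged, 22 as moved and 1 as turned. For the difference in mean number of members with a peak, only direction and the p-value threshold were compared. No p could pass that threshold, so a change of size there was not counted. The dsLaminB difference of −3 in lists of equal length was thus classed as unchanged. All values of the replicate block, which could not differ, were too.

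These lists limit what can be read from them. A missing peak means that none passed the caller's threshold at an unknown depth, and 2 libraries per group cannot reach a p below 0.333.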
